A study of Bos indicus with 6 samples.

Results

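Platelet-derived growth factors (PDGFs) are secreted dimers that signal through a pair of receptor tyrosine kinases. PDGF-AA and PDGF-CC act mainly through the alpha receptor, PDGFRA, which is carried by fibroblasts and other mesenchymal cells. PDGF-BB binds both receptors, and PDGF-DD acts mainly through the beta receptor, PDGFRB, which marks pericytes and vascular smooth muscle. The chains A and B are processed inside the cell, whereas C and D are secreted with an inhibitory CUB domain that extracellular proteases must remove. In a tubular organ such as the oviduct the ligands are known mostly as products of epithelium and endothelium, and the receptors as products of the stroma, the vessel wall and the muscle layer. The 6 genes described here are the 4 ligand genes PDGFA, PDGFB, PDGFC and PDGFD and the 2 receptor genes PDGFRA and PDGFRB. They were taken by their symbols from the 24616 genes of the isthmus table, each symbol stood on 1 row, and all 6 were among the 15387 genes tested.

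Isthmus tissue, through the whole thickness of the wall, came from 6 multiparous Nelore (Bos indicus) cows, with 1 RNA-seq library per cow. Every cow was synchronised with prostaglandin F2 alpha analog, buserelin (a GnRH agonist), estradiol benzoate and an intravaginal progesterone device, was induced to ovulate with GnRH, and was slaughtered on day 4. In the LF/LCL group (larger follicle, larger corpus luteum; cows 617, 79 and 527) prostaglandin was also given when the device was inserted, and the progesterone device came out 42 h ahead of GnRH. SF/SCL cows (smaller follicle, smaller corpus luteum; 856, 489215 and 97) had it taken out 30 h ahead. The cows sequenced were not a random draw, since they had been ranked on follicle size, corpus luteum size and hormone concentrations and taken from opposite ends of the ranking. The unit throughout is the normalized count, the reads of a gene divided by the size factor of the library, and the libraries held from 23899117 to 34193164 counted reads.

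The library of SF/SCL cow 489215 stood apart from the rest. Over the genes tested its root mean square difference from the other SF/SCL libraries was 1.41 on the log2 scale, against 0.544 to 0.588 within the LF/LCL group and 0.554 between SF/SCL cows 856 and 97. OVGP1, the secreted glycoprotein that defines oviduct secretory cells, had normalized counts of 271794 and 325158 in cows 856 and 97, 730 in cow 489215, and 287, 1782 and 1950 in the LF/LCL cows. For OVGP1, cow 489215 thus lay within the LF/LCL range, and cows 856 and 97 lay outside it. The smooth muscle markers were abundant in all 6 libraries. Their summed normalized counts were 320565 and 386979 in cows 856 and 97, 1217820 in cow 489215, and 705137 to 825682 in LF/LCL. The results of the members and their ratios are therefore given with and without cow 489215. In whole tissue, fewer cells of a type and less RNA per cell cannot be told apart.

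Both receptors and PDGFD had lower mean levels in SF/SCL than in LF/LCL, PDGFC had a higher mean level, and PDGFA and PDGFB differed little in the mean. PDGFRB showed the greatest difference of the 6 genes, with a mean 2.32 times higher in LF/LCL. PDGFRA was 1.76 times and PDGFD 1.65 times higher in LF/LCL, and PDGFC was 1.74 times higher in SF/SCL. None of these differences passed the adjusted threshold with all 6 libraries. After Benjamini-Hochberg adjustment limma called 0 of the 6 members, against 0% of all genes tested. Before adjustment, 3 members (PDGFD, PDGFRA and PDGFRB) had a limma p-value under 0.05, all with the lower level in SF/SCL. Over all genes 8.66% reached that level, 4.48% being lower and 4.19% being higher. With the recovered reads, 3 members reached an unadjusted p-value under 0.05 with edgeR, against 8.49% of genes, and 3 with DESeq2, against 11.5% of genes. The adjusted threshold was reached by 0 members with edgeR and by 0 members with DESeq2, which called 2.7% of all genes. For PDGFD and PDGFRB, 2 of the 6 members, every cow of one group lay above every cow of the other. Over all genes this held for 18.1%, with LF/LCL above for 8.6% and SF/SCL above for 9.51%.

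**Figure D1:**
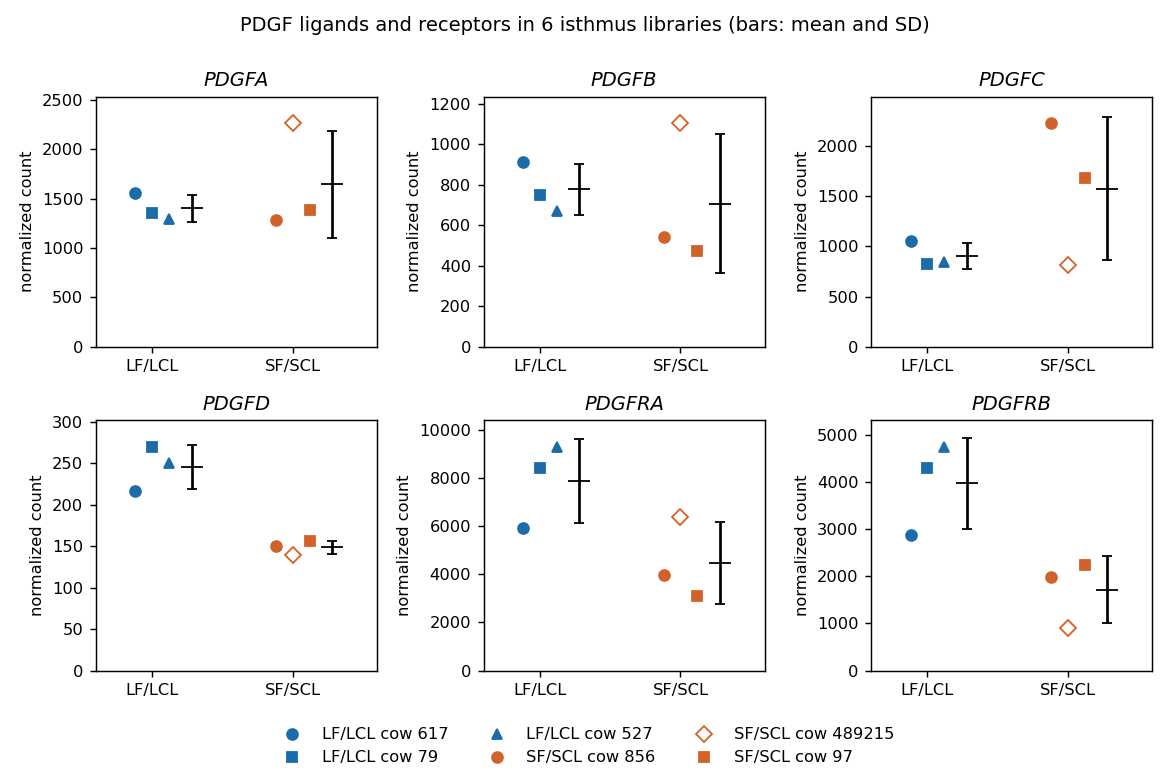
Normalized counts (vertical axes, each from 0) of the 6 genes in the 3 LF/LCL cows (blue) and the 3 SF/SCL cows (orange), with the mean and SD of each group as a bar. The groups separate for PDGFD and PDGFRB, and the open diamond, SF/SCL cow 489215, lies with or beyond the LF/LCL cows for PDGFA, PDGFB, PDGFC and PDGFRA.

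PDGFRB (ENSBTAG00000002804), the receptor of the mural cells of vessels, had normalized counts of 2879, 4289 and 4739 in LF/LCL cows 617, 79 and 527. In SF/SCL cows 856, 489215 and 97 it had 1986, 909 and 2244. Every SF/SCL cow was below every LF/LCL cow, and cow 489215 was by far the lowest. The means were 3969 ± 970 and 1713 ± 708 (SD, n = 3 each). The log2 fold change of SF/SCL over LF/LCL was -1.28 (standard error, SE, 0.39, 95% interval -2.22 to -0.35, limma with Benjamini-Hochberg adjustment gave an adjusted p = 0.437), and only 3.35% of the genes tested had a lower one. Without cow 489215 the difference was smaller and its error smaller still, with a log2 fold change of -0.88 (SE 0.21, limma adjusted p = 0.0358).

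PDGFRA (ENSBTAG00000007173), the receptor for PDGF-AA and PDGF-CC on fibroblasts, had 5927, 8402 and 9272 in the LF/LCL cows in the same order and 3957, 6353 and 3093 in the SF/SCL cows. Here cow 489215 lay above LF/LCL cow 617, so the groups overlapped, while cows 856 and 97 lay below all LF/LCL cows. The rank of cow 489215 above cow 617 rested on the size factors, 0.751 in cow 489215 and 0.955 in cow 617. In reads, PDGFRA had 4772 of 25472906 in cow 489215 and 5663 of 25652651 in cow 617. The means were 7867 ± 1735 and 4468 ± 1689 (SD, n = 3 each). The log2 fold change was -0.86 (SE 0.32, 95% interval -1.62 to -0.09, limma adjusted p = 0.514), and without cow 489215 it was -1.14 (SE 0.21, limma adjusted p = 0.0159). The same cow therefore moved the receptors in opposite directions, lowering the SF/SCL mean of PDGFRB and raising that of PDGFRA.

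PDGFD (ENSBTAG00000034827), the latent ligand of PDGFRB, was the most evenly separated member. Its normalized counts were 217, 269 and 250 in the LF/LCL cows and 150, 140 and 156 in the SF/SCL cows. All SF/SCL cows lay within a narrow band under the lowest LF/LCL cow, cow 489215 among them. The means were 245 ± 26.7 and 148 ± 8.19 (SD, n = 3 each). The log2 fold change was -0.72 (SE 0.25, 95% interval -1.31 to -0.12, limma adjusted p = 0.485). PDGFD was read from 105 to 287 reads per library, and 105 reads alone give a counting error of 9.76%, more than the coefficient of variation of 5.52% among the SF/SCL cows. Unlike the other members its log2 fold change hardly moved when cow 489215 was left out, at -0.67 (SE 0.19), although the adjusted p-value from limma was then 0.0536.

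PDGFC (ENSBTAG00000043959), the latent ligand of PDGFRA, was 1 of 2 members with a higher mean in SF/SCL, along with PDGFA. It had 1052, 821 and 841 in the LF/LCL cows and 2226, 819 and 1684 in the SF/SCL cows. Cows 856 and 97 were well above every LF/LCL cow, whereas cow 489215 was level with the lowest of them, cow 79. That match rested on the size factors, 0.751 in cow 489215 and 1.07 in cow 79. In reads, PDGFC had 615 of 25472906 in cow 489215. LF/LCL cows 617, 79 and 527 had 1005 of 25652651, 875 of 28659214 and 958 of 29836083. The means were 905 ± 128 and 1576 ± 710 (SD, n = 3 each). The log2 fold change was 0.69 (SE 0.38, 95% interval -0.23 to 1.61, limma adjusted p = 0.7). Without cow 489215 it was 1.11 (SE 0.17, limma adjusted p = 0.00934), and the SF/SCL mean was then 2.16 times that of LF/LCL.

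For both classical ligands the mean difference was small with all 6 libraries and its sign turned when a single cow was left out. PDGFA (ENSBTAG00000014541), which forms PDGF-AA, had 1558, 1353 and 1293 in the LF/LCL cows and 1281, 2263 and 1390 in the SF/SCL cows. Cows 856 and 97 were within or just under the LF/LCL range, and cow 489215 was above all others. The log2 fold change was 0.19 (95% interval -0.43 to 0.81, limma adjusted p = 0.894), and -0.066 without cow 489215 (95% interval -0.35 to 0.21). PDGFB (ENSBTAG00000021697), the endothelial ligand that recruits pericytes, had 915, 749 and 670 in the LF/LCL cows and 544, 1104 and 476 in the SF/SCL cows. As for PDGFA, cow 489215 was the highest and cow 617 came next, but cows 856 and 97 lay under the whole LF/LCL range. The rank of cow 489215 above cow 617 for PDGFB rested on the size factors, 0.751 and 0.955. In reads, PDGFB had 829 of 25472906 in cow 489215 and 874 of 25652651 in cow 617. The log2 fold change of PDGFB was -0.23 (95% interval -1.08 to 0.63, limma adjusted p = 0.903). Without cow 489215 it was -0.60 (95% interval -0.995 to -0.20, limma adjusted p = 0.0508). These intervals leave room for differences of PDGFA and PDGFB in either direction with all 6 libraries.

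**Figure D2:**
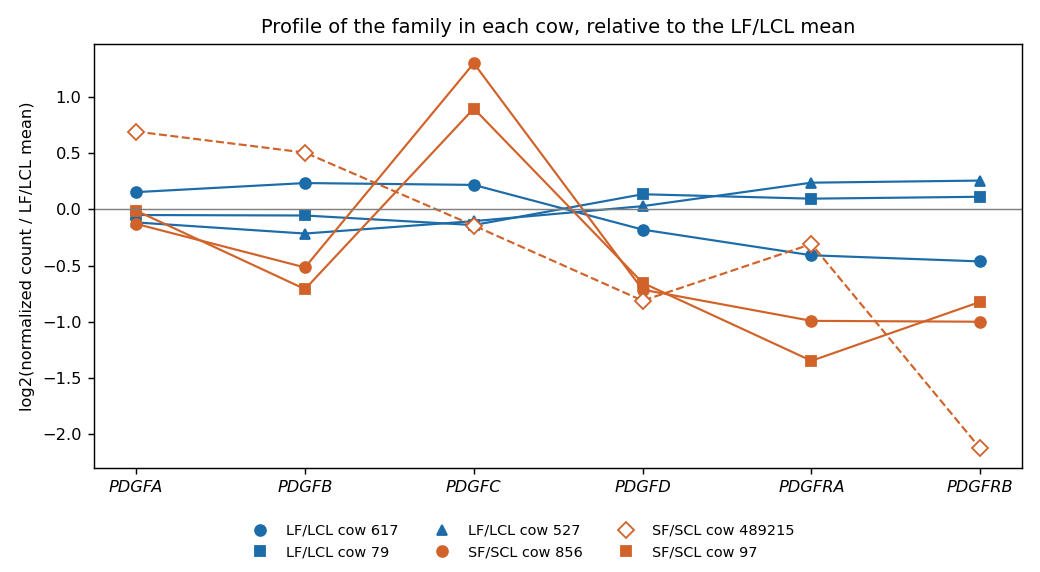
Log2 of each cow's normalized count over the LF/LCL mean (vertical axis) for the 6 genes (horizontal axis), with a line per cow, LF/LCL in blue and SF/SCL in orange. SF/SCL cows 856 and 97 follow each other, high for PDGFC and low for both receptors, and the dashed line of cow 489215 leaves them for every gene except PDGFD.

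With the 5 other libraries, 3 of the 6 members (PDGFC, PDGFRA and PDGFRB) had an adjusted p-value under 0.05 from limma. This has to be read against 18.2% of all genes in the same fit, 7.92% lower and 10.3% higher in SF/SCL. Groups that did not overlap were then found for 5 members, all except PDGFA, of which 4 were higher in LF/LCL. Over all genes 52% showed no overlap in those 5 libraries, with LF/LCL above for 24.9% and SF/SCL above for 27.1%. SF/SCL is then represented by 2 cows. The spread of the members within SF/SCL followed the same cow, since with all libraries the coefficient of variation in SF/SCL was 32.7% for PDGFA, 48.7% for PDGFB, 45% for PDGFC, 37.8% for PDGFRA and 41.3% for PDGFRB, against 9.93% to 24.4% in LF/LCL. The reads of these 5 genes were at least 439 per library, for which counting error was at most 4.77%.

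**Figure D3:**
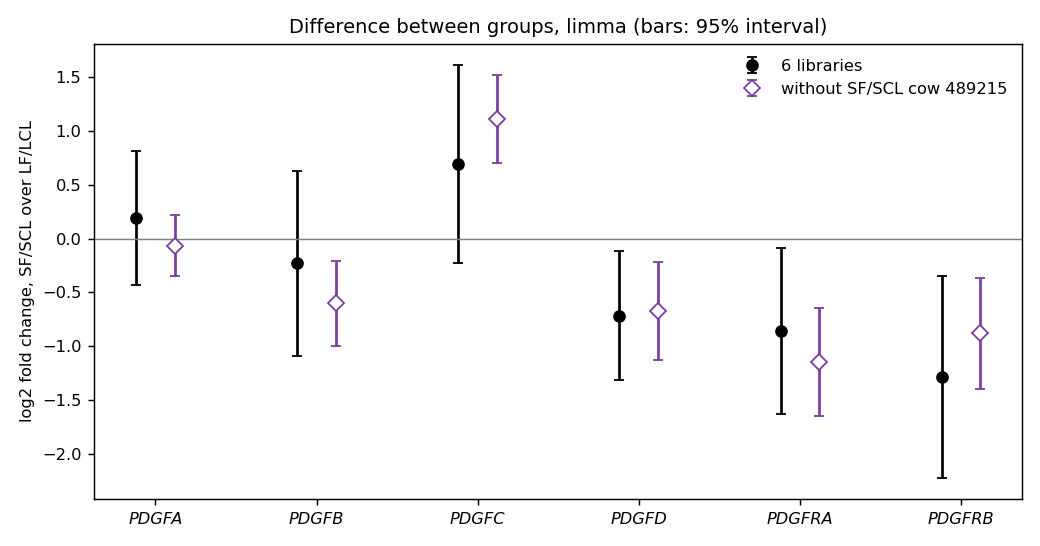
Log2 fold change of SF/SCL over LF/LCL from limma (vertical axis) for each gene, with 95% intervals, for all 6 libraries (black) and without SF/SCL cow 489215 (purple diamonds). With all libraries the intervals of PDGFD, PDGFRA and PDGFRB lie below 0, and without the cow that of PDGFC lies above 0 and that of PDGFB below it.

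The balance of ligand to receptor was then compared within each cow, which cancels the size factor of the library. Values are log2 ratios minus the LF/LCL mean of that ratio, because read counts of genes of different length give no level of one gene against another. PDGFA relative to PDGFRA was 0.54, -0.17 and -0.37 in LF/LCL cows 617, 79 and 527 and 0.84, 0.98 and 1.31 in SF/SCL cows 856, 489215 and 97. This was the only ratio of the 9 examined in which the groups did not overlap with all 6 libraries. The mean was 1.04 higher in SF/SCL on the log2 scale, or 2.06-fold (exact permutation test, two-sided, p = 0.1, the smallest value that 3 against 3 allows, and 0.54 after Benjamini-Hochberg adjustment over the 9 ratios). Without cow 489215 the difference was 1.08.

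PDGFC relative to PDGFRA divided the SF/SCL cows. It was 2.27 and 2.23 in SF/SCL cows 856 and 97, but 0.15 in cow 489215, which lay inside the LF/LCL range of -0.36 to 0.61. The difference of the means was 1.55 on the log2 scale (exact permutation test, p = 0.2), and 2.25 without cow 489215. For the PDGFRB ligands the groups overlapped. PDGFB relative to PDGFRB was 1.06 higher in SF/SCL (exact permutation test, p = 0.3) and PDGFD relative to PDGFRB was 0.57 higher (exact permutation test, p = 0.2). Both differences rested on cow 489215, at 2.61 and 1.29, and were 0.28 and 0.20 without it.

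PDGFRA relative to PDGFRB was nearly the same in 4 of the cows. In the LF/LCL cows the SD of this log2 ratio was 0.042, so that the receptors moved together from cow to cow although each varied by 22.1% and 24.4%. SF/SCL cow 856 was at 0.0012, cow 97 at -0.53 and cow 489215 at 1.81. The group difference was 0.43 (exact permutation test, p = 0.8), and it turned to -0.26 without cow 489215.

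**Figure D4:**
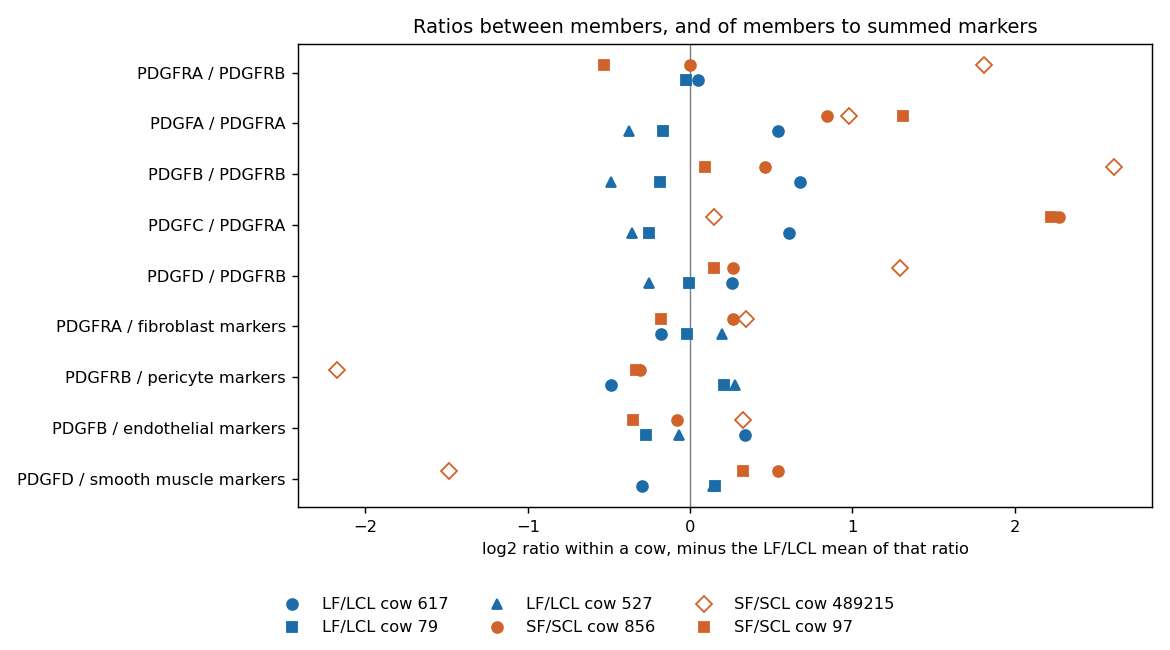
Log2 ratio within each cow minus the LF/LCL mean of that ratio (horizontal axis), for 5 ratios between members and 4 ratios of a member to the summed normalized counts of a marker list (vertical axis), with LF/LCL cows in blue and SF/SCL cows in orange. The groups are apart for PDGFA over PDGFRA, and SF/SCL cow 489215 (open diamond) is the outermost cow for PDGFRB over pericyte markers, PDGFD over smooth muscle markers and PDGFB over PDGFRB.

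Markers of the cells known to carry the receptors were examined beside them. Of the 9 fibroblast markers listed, 8 were matched and tested, and all 8 had a lower mean log2 value in SF/SCL, 4 of them (LUM, COL1A1, COL1A2 and COL3A1) at a limma p-value under 0.05 before adjustment. Their summed normalized count was 381160 to 482689 in LF/LCL and 186907 to 283830 in SF/SCL. Set against this sum, PDGFRA differed between the groups by 0.14 on the log2 scale, with an SD of 0.19 in LF/LCL and 0.28 in SF/SCL (exact permutation test, p = 0.5), and by 0.044 without cow 489215. The difference of PDGFRA between the groups was thus of the size of that of the fibroblast markers, and the part of cell composition in it was not tested.

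Of the 7 pericyte markers, 5 had a lower log2 value in SF/SCL and 2 (CSPG4 and HIGD1B) a higher one, and RGS5 and ABCC9 reached a limma p-value under 0.05 before adjustment. Their sum was 15992 to 17435 in LF/LCL and 10602 to 17714 in SF/SCL, where the highest value was that of cow 489215. MCAM alone gave 12864 of that sum. The 6 other markers summed to 8142 to 9025 in LF/LCL, 6158 and 7235 in cows 856 and 97, and 4850 in cow 489215. PDGFRB relative to the sum of all 7 markers, MCAM included, was 0.94 lower in SF/SCL on the log2 scale (exact permutation test, p = 0.3). Cow 489215 stood at -2.17 in this ratio. Cows 856 and 97, at -0.31 and -0.33, were inside the LF/LCL range of -0.49 to 0.28, and without cow 489215 the group difference was -0.32. Relative to the markers other than MCAM, a ratio chosen after its values were seen, PDGFRB was 0.76 lower in SF/SCL, with cow 489215 at -1.26, and the difference was -0.50 without that cow.

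In the same way PDGFB was set against endothelial markers and PDGFD against smooth muscle markers. Of the 8 endothelial markers tested, 7 had a lower log2 value in SF/SCL, and CDH5 reached a limma p-value under 0.05 before adjustment. Their sum was 14202 to 18270 in LF/LCL and 11650 to 17776 in SF/SCL, and PDGFB relative to it differed by -0.036 between the groups (exact permutation test, p = 0.7) and by -0.22 without cow 489215. PDGFD relative to the summed smooth muscle markers differed by -0.21 (exact permutation test, p = 1) with all libraries and by 0.43 in the opposite direction without cow 489215. That sum was 705137 to 825682 in LF/LCL, 320565 and 386979 in cows 856 and 97, and 1217820 in cow 489215, and all 7 of its tested markers had a lower log2 value in SF/SCL. With all libraries 0 of them reached a limma p-value under 0.05 before adjustment, and without cow 489215 6 passed the adjusted threshold, lower in SF/SCL. Over all genes in that fit 18.2% passed, 7.92% being lower in SF/SCL.

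PDGFC was set beside the epithelial markers. Of the 8 ciliated cell markers, 7 had a higher log2 value in SF/SCL, and TPPP3, DNAI1 and CCDC39 reached a limma p-value under 0.05 before adjustment. Their sum was 35364 to 46356 in LF/LCL, 65973 and 69718 in cows 856 and 97, and 44711 in cow 489215, so that the cows with high sums were those with high PDGFC. Of the 6 general and secretory epithelium markers tested, 5 had a higher value in SF/SCL, and EPCAM, KRT8, KRT18 and MUC1 reached that level. The sum of the 7 matched was 24498 to 32357 in LF/LCL, 309982 and 369704 in cows 856 and 97, mostly OVGP1, and 50248 in cow 489215. In normalized counts EPCAM, KRT8 and MUC1 were highest of all libraries in cow 489215, at 20313, 13358 and 6421, where PDGFC was at the LF/LCL level. For EPCAM and KRT8 the rank of cow 489215 above cows 856 and 97 rested on the size factors. These were 0.751 in cow 489215, 1.32 in cow 856 and 0.923 in cow 97. MUC1 was highest in cow 489215 in reads as well, at 4823. PDGFC relative to the ciliated sum, a ratio chosen after its values were seen, was 0.62 and 0.14 above the LF/LCL mean in cows 856 and 97 and 0.26 below it in cow 489215. The LF/LCL cows ran from -0.17 to 0.12 in this ratio. PDGFC relative to EPCAM was 0.66 and 0.0087 in cows 856 and 97 and -1.14 in cow 489215. The part of epithelial content in the PDGFC difference was not tested.

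Markers of blood cells were examined as well. Among the platelet markers PF4, PPBP, GP9, GP1BA and GP6 were at or under 2.17 normalized counts in every library, and ITGA2B, at 116 to 283, made up nearly the whole sum of 151 to 285 in LF/LCL and 116 to 252 in SF/SCL. The erythrocyte markers summed to 5.27 to 11.5 in LF/LCL and 9.87 to 25.3 in SF/SCL. The leukocyte markers summed to 2100 to 3573 in LF/LCL and 2041 to 3211 in SF/SCL, and 0 of the 7 tested reached an unadjusted p-value under 0.05. Of the mesothelial markers 0 passed the filters. LRRN4 was 283, 412 and 175 in LF/LCL and 3.80, 5.33 and 16.3 in SF/SCL, while MSLN was 808 to 1871 in LF/LCL and 17590, 2299 and 18098 in SF/SCL cows 856, 489215 and 97.

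Other genes of the pathway were followed in lists by role. Of 68 genes, 67 were tested, all but SPRY4. Before adjustment 9 of the 67, or 13.4%, had a limma p-value under 0.05, with 6 lower (8.96%) and 3 higher (4.48%) in SF/SCL, and 0 passed the adjusted threshold. The median log2 fold change of the 67 genes was -0.13, and -0.082 without cow 489215, beside -0.016 and -0.00092 for all genes tested. Without cow 489215, 14 of the 67 passed the adjusted threshold, or 20.9%, which is near the share of all genes in that fit.

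Among the genes that process or bind the ligands, 6 of the 8 had lower and 2 had higher log2 values in SF/SCL. Without cow 489215, 6 of the 8 passed the adjusted threshold, 4 lower and 2 higher in SF/SCL. The share over all genes in that fit was 18.2%, with 7.92% lower and 10.3% higher. In the other lists 1 of 3 co-receptors and receptor-like proteins and 4 of 33 adaptors and effectors passed. So did 1 of 11 negative regulators and 2 of 12 early response genes. PLAT, the tissue plasminogen activator that cleaves latent PDGF-CC, had 1939, 1550 and 1465 in the LF/LCL cows and 3682, 2954 and 3930 in the SF/SCL cows. All SF/SCL cows were above all LF/LCL cows, cow 489215 included, and the log2 fold change was 1.09 (SE 0.20, limma adjusted p = 0.351, and 0.00395 without cow 489215). PLAU, the urokinase that can cleave PDGF-DD, had 342, 376 and 473 in the LF/LCL cows and 1038, 229 and 810 in the SF/SCL cows, so that it was low in cow 489215 where PLAT was high. Its log2 fold change was 0.55, and 1.22 without cow 489215 (limma adjusted p = 0.00984). ST14, or matriptase, another protease of PDGF-DD, had a log2 fold change of -0.12, and of -0.44 without cow 489215 (limma adjusted p = 0.0479). FURIN, the convertase that processes the A and B chains, had 2986, 3010 and 3543 in LF/LCL and 2289, 933 and 2207 in SF/SCL, without overlap. Its log2 fold change was -0.92 (SE 0.37, limma adjusted p = 0.555), and -0.50 without cow 489215 (limma adjusted p = 0.0252).

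Among the binding proteins, A2M, a plasma and tissue protein that traps PDGF-BB, had 20875, 25414 and 42738 in LF/LCL and 16380, 13251 and 13827 in SF/SCL, with a log2 fold change of -0.97 and no overlap. HSPG2, the basement membrane proteoglycan perlecan, had a log2 fold change of -1.19, again without overlap, and of -0.58 without cow 489215. SPARC, which binds the B chain, was at 91337 and 82223 in cows 856 and 97, at 349536 in cow 489215 and at 228157 to 315614 in LF/LCL. Its log2 fold change was -0.92, and -1.59 without cow 489215 (limma adjusted p = 0.00283). THBS1 had a log2 fold change of -0.32. In this list of 8, 2 genes were lower (FURIN and A2M) and 1 was higher (PLAT) at an unadjusted p-value under 0.05.

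All 3 co-receptors and receptor-like proteins had lower means in SF/SCL. NRP1, a co-receptor of several growth factors, had 1460, 1888 and 1378 in LF/LCL and 980, 383 and 972 in SF/SCL, without overlap and at a log2 fold change of -1.12 with all libraries and -0.68 with cow 489215 left out. Cow 489215 was the lowest for NRP1 as for PDGFRB, but also for FURIN, HSPG2 and LRP1, and it was the highest for SPARC and MCAM. For SPARC its rank above cow 617 rested on the size factors, 0.751 in cow 489215 and 0.955 in cow 617. PDGFRL, a receptor-like protein without a kinase domain, had a log2 fold change of -0.86, and LRP1, the scavenger receptor that associates with PDGFRB, had -0.97, which was -0.41 without cow 489215. NRP1 and PDGFRL reached a limma p-value under 0.05 before adjustment.

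Downstream of the receptors, of the 33 adaptors and effectors 1 reached an unadjusted p-value under 0.05. The median log2 fold change of this list was -0.12, and -0.011 without cow 489215. Of the 11 negative regulators tested 0 reached that level, with a median of -0.39, which was -0.095 without cow 489215. Of the 12 early response genes, which PDGF and many other stimuli induce, 2 were lower at an unadjusted p-value under 0.05 (EGR2 and SRF) and 1 was higher (DUSP1). SRF, the serum response factor, had 3900, 4087 and 3201 in LF/LCL and 2501, 2012 and 2172 in SF/SCL (log2 fold change -0.74). DUSP1, a phosphatase that turns off MAP kinases, had 3071, 3770 and 3541 in LF/LCL and 4302, 8184 and 5807 in SF/SCL (log2 fold change 0.77). EGR2 was low throughout, at 36.6, 24.4 and 13.2 in LF/LCL and 5.32, 3.99 and 6.50 in SF/SCL. EGR1 and MYC, also of this list, differed by -0.57 and 0.59 on the log2 scale, or by -1.05 and 0.39 without cow 489215. The median of the early response list turned from 0.14 to -0.042 without that cow.

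**Figure D5:**
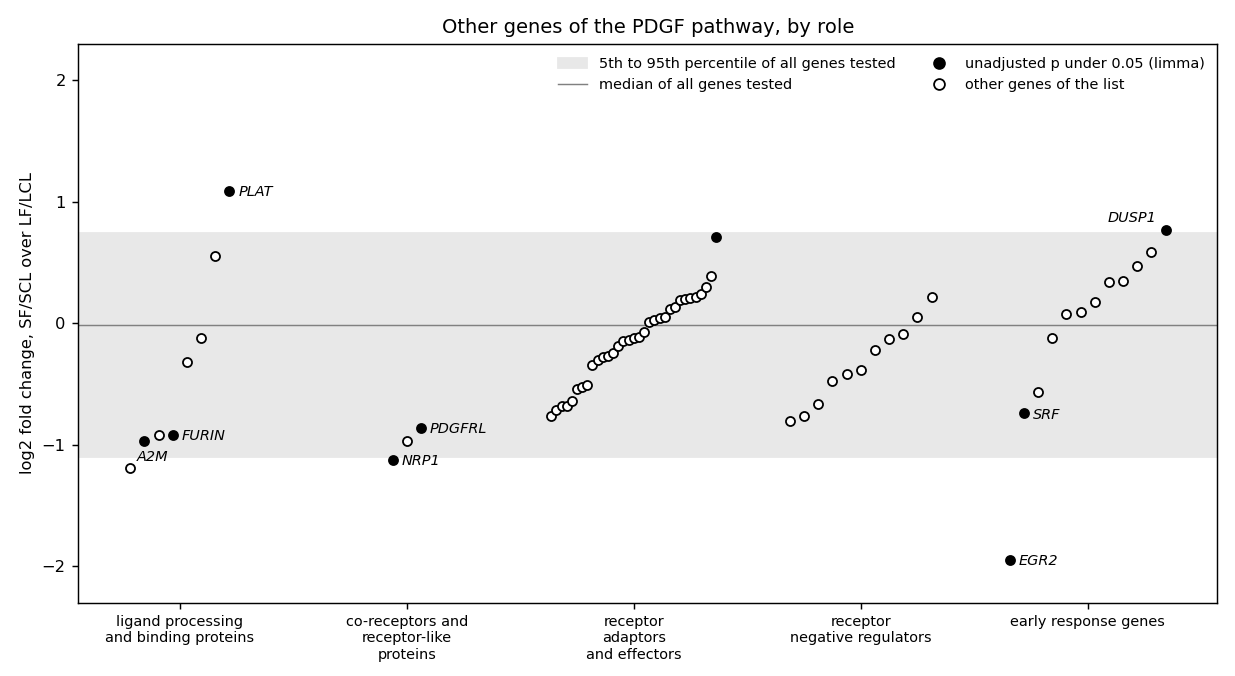
Log2 fold change of SF/SCL over LF/LCL (vertical axis) of the 67 other pathway genes tested, grouped by role (horizontal axis), with genes at a limma p-value under 0.05 before adjustment filled, and named except among the adaptors and effectors, and the 5th to 95th percentile of all 15387 genes tested in grey. PLAT and DUSP1 lie above the grey band, and NRP1, EGR2 and the unnamed HSPG2 below it.

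The genes whose profile over the 6 libraries was nearest to each member were listed by the root mean square difference between centred log2 values, as a description without a test. The nearest to PDGFC was ARID5A, at 0.039, and it stayed among the nearest 3 in all 6 runs that left out a cow. DNAAF3, an assembly factor of ciliary dynein arms, and GCLM followed, at 0.090 and 0.097. PLEKHO2, AHI1 and PLXNA3 were nearest to PDGFD, at 0.080 to 0.084. The profile of PDGFRB was nearest to those of MGC148692, LPCAT1 and COL5A1, a fibrillar collagen, at 0.119 to 0.123. FGD3, PDE1A and the microRNA gene bta-mir-145 were nearest to PDGFRA, at 0.142 to 0.147. PWP1, NR2C2AP and SCOC were nearest to PDGFA, at 0.029 to 0.039, and COPRS, PCYT2 and NUDCD3 to PDGFB, at 0.074 to 0.077. Apart from ARID5A these neighbours depended on the libraries, since 2 to 7 of the 18 were found again when a cow was left out.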

How the data were processed

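Polyadenylated RNA of 6 isthmus samples, 3 LF/LCL and 3 SF/SCL, was sequenced by the authors, who aligned the filtered reads to the masked Bos taurus UMD 3.1 assembly with TopHat2 2.0.8 and Bowtie2 2.1.0, counted unique alignments over Ensembl genes with HTSeq 0.5.4p2, and divided the counts by DESeq 1.12.1 size factors. The deposited signal values are these normalized counts, for 24616 genes without a filter. Whether counting used the strand is not given in the sources used here. Values were whole multiples of a step in every library (100% within 0.05 reads), so reads were recovered. No transcript lengths and no annotation of that assembly were used, so no positions are given and levels of different genes are not compared.

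Genes whose mean exceeded both 5 and their SD were tested with limma 3.58.1 in R 4.3.3 (trend and robust) on log2(value + 1), which understates changes of low genes, with Benjamini-Hochberg adjustment over all 15387 genes. As alternatives, edgeR 4.0.16 (quasi-likelihood), DESeq2 1.42.0 and limma-voom were run on the recovered reads. Other scalings, filters and pseudocounts and leaving out each cow were also tried. The fits were tested on simulated data. Ratios were tested with an exact permutation test. P-values measure the spread between cows, 1 library each. The members, lists and tests were chosen with earlier results of these data known. Named were the members, pathway genes (some are not reported here) at an unadjusted p-value under 0.05 or passing without cow 489215, ligand-processing genes, co-receptors, markers, and the 3 nearest profiles per member. HSPG2, SPRY4, EGR1, MYC, CSPG4, HIGD1B and MCAM were named after their values were seen. PDPN, PECAM1, ACTG2 and CDH1 were not matched by symbol and were not used. Python 3.11.15 was used for the rest.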

Additional observations from a re-analysis of the deposited data

How the results depend on the processing

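Every member kept its side of the adjusted threshold under the 9 alternatives of test, scaling, filter and pseudocount. The count of members past the threshold was 0 to 3 when a cow was left out, and the 3 came from leaving out SF/SCL cow 489215. The count over all genes was then 0 to 2827, the latter without the same cow, and it was 416 with DESeq2 and 0 with the other tests. When each cow was left out, the log2 fold change ran from -0.066 to 0.34 for PDGFA, from -0.60 to 0.0062 for PDGFB, from 0.38 to 1.11 for PDGFC, from -0.80 to -0.65 for PDGFD, from -1.14 to -0.62 for PDGFRA and from -1.53 to -0.88 for PDGFRB. The sign of PDGFA turned without cow 489215 and that of PDGFB without SF/SCL cow 97. PDGFC, PDGFRA and PDGFRB passed the adjusted threshold without cow 489215 alone. The pathway genes at an unadjusted p-value under 0.05 numbered 4 to 22, with 22 without cow 489215, 5 without LF/LCL cow 617 and 4 without LF/LCL cow 79 or 527. Of the 18 nearest genes 2 to 7 were found again. Among the ratios, PDGFRA to PDGFRB ran from -0.26 (without cow 489215) to 0.91, PDGFB to endothelial markers from -0.22 to 0.13 (positive without cow 617 or 97) and PDGFD to smooth muscle markers from -0.58 to 0.43 (positive without cow 489215). With the mean of the log2 markers in place of their sum, PDGFRA to fibroblast markers turned to -0.011 and PDGFB to endothelial markers to 0.059. The ratios of PDGFC to EPCAM and to KRT8, added after seeing the data, turned from -0.16 to 0.33 and from -0.066 to 0.41 without cow 489215. The cause of these shifts was not tested. No other fold change or ratio of a member changed direction under these alternatives. Depth limits PDGFD alone among the members, at 105 reads in its lowest library, and counting errors cover counting only, since no molecular identifiers were used. With 3 cows a group, exact tests cannot go below 0.1.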
